A study of Homo sapiens with 4 samples.

Results

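The genes described here are the 8 subunits of the human condensin I and condensin II complexes, SMC2, SMC4, NCAPH, NCAPD2, NCAPG, NCAPH2, NCAPD3 and NCAPG2. They were chosen by gene symbol from a table of RNA-seq expression values with 24934 gene rows, and each symbol stood on 1 row. All 8 passed the expression limit of at least 1 FPKM (fragments counted per kilobase of a transcript and corrected for library size) in a library, so none was left out. The RNA came from HEK-293, an established human embryonic kidney cell line, 48 h after transfection with 10 nM of an siRNA in Lipofectamine RNAi MAX. The siRNAs si4 and si5 target ZSCAN5A, si1 targets ZSCAN5B, and a scrambled siRNA served as the negative control. ZSCAN5A and ZSCAN5B are paralogous zinc finger proteins of the SCAN domain family. Each of the 3 siRNAs and the control is represented by 1 library, 4 in all, so a difference from the control has no replicate check, and no source states that the libraries came from separate cultures.

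Condensins are ring-shaped ATPases that extrude loops of DNA and thereby compact and stiffen mitotic chromosomes. SMC2 and SMC4 are long coiled-coil ATPases and form the common core of both complexes. A kleisin subunit, NCAPH in condensin I and NCAPH2 in condensin II, closes the ring between the ATPase heads, and a pair of HEAT-repeat proteins that bind DNA and regulate the motor sits on the kleisin. These are NCAPD2 and NCAPG in condensin I and NCAPD3 and NCAPG2 in condensin II. Condensin II is nuclear through interphase and begins to act in prophase, whereas condensin I reaches the chromosomes after the nuclear envelope breaks down. Condensins also gather at genes bound by the RNA polymerase III factor TFIIIC, among them tRNA genes. Many genes of mitosis, condensin subunits included, are transcribed mainly in late S phase, G2 and mitosis. The comparison therefore asks whether the mRNA levels of the subunits, or the balance between them, differed after siRNA against a gene of the ZSCAN5 family.

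The targets of the 3 siRNAs are shown because the members were searched for matches to them. Each lies on the minus strand of chromosome 19 (GRCh37/hg19), in coding sequence, and is written 5′ to 3′ in the sense of the mRNA. Capitals mark the site that pairs with the seed, bases 2 to 8 of the guide strand.
si4, exon 6 of 6 of ZSCAN5A, chr19:56733332-56733352: cgagaagaggtttACGTGTAa
si5, exon 6 of 6 of ZSCAN5A, chr19:56733307-56733327: aagctagtcatccACAAGAGa
si1, exon 5 of 5 of ZSCAN5B, chr19:56701591-56701611: acgtgtgcaataaATCATTTa
The best ungapped match of a condensin transcript to any of these 21-base targets still had 6 mismatches, found between NCAPG and si5, and the other matches had 7 to 9. No member held the si4 or si5 seed site in its 3′ UTR, beside 3.36% (si4) and 11.98% (si5) of 11962 expressed coding transcripts. With shares this low, the absence of a site does not set the members apart. Outside the 3′ UTR, the si5 seed site was present in the transcripts of SMC4, NCAPD2 and NCAPG2, and the si4 site in no member. The si1 seed site was present in the 3′ UTR of NCAPH and NCAPD3, or 2 of 8 members, beside 23.5% of 11962 expressed coding transcripts. NCAPD3 held 2 si1 sites in its whole transcript, 1 of them in the 3′ UTR.

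ZSCAN5A stood at 30.2% of the control after si4 and 29.5% after si5, and at 105% after si1. ZSCAN5B, at 0.0948 FPKM in the si1 library against 0.0903 FPKM in the control, was not lower where it was targeted (105%), and it stood at 36.6% of the control after si4 and 73.4% after si5. The ZSCAN5B values are all far under 1 FPKM and check the label of the si1 library only weakly. That library is therefore named by its label, as the library labelled ZSCAN5B knockdown, or by its siRNA. ZSCAN5A stood at 2.42 FPKM in the control, 2.53 after si1, 0.730 after si4 and 0.713 after si5. The epithelial keratin KRT8 (148 to 199 FPKM), vimentin (VIM, 270 to 359 FPKM) and the neurofilament gene NEFL (37.0 to 45.2 FPKM), which HEK-293 cells express, were high in all 4 libraries. KRT18 (70.4 to 86.2 FPKM), NEFM (8.46 to 11.4 FPKM) and INA (6.75 to 8.45 FPKM) were also expressed. The kidney genes were low, LHX1 at 3.28 to 4.17 FPKM and PAX2 at 0.584 to 1.16 FPKM. Among genes the line should lack, the leukocyte gene PTPRC (up to 0.00736 FPKM), the hepatocyte gene ALB (up to 0.0335 FPKM) and the endothelial gene PECAM1 (up to 0.0111 FPKM) were near 0. The fibroblast gene COL1A1 was not, at 1.10 to 1.85 FPKM. The step size of very low FPKM values put library depth at approximately 53700000 to 83000000 fragments, highest for si5, at 1.54 times the control.

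Condensin mRNAs were moderately to highly abundant in the cells, and the levels of the subunits were far from equal. In the scrambled control, NCAPD2 stood highest at 63.1 FPKM, followed by SMC4 at 48.2, NCAPG2 at 37.0, NCAPD3 at 28.5, NCAPH2 at 24.7, NCAPH at 18.4, NCAPG at 17.7 and SMC2 at 17.4 FPKM. The 5 highest subunits kept these ranks in every library. The 3 lowest did not, since the order was NCAPH, NCAPG, SMC2 in the control and SMC2, NCAPG, NCAPH after each of si4, si5 and si1. In the control these 3 lay between 17.4 and 18.4 FPKM, closer together than si4 and si5 were for NCAPH or NCAPG, so their order there is not resolved. Over the 4 libraries, the range of NCAPD2 (48.1 to 63.1 FPKM) overlapped that of SMC4 (43.0 to 52.0 FPKM), and NCAPH2 (21.6 to 25.4 FPKM) overlapped SMC2 (21.1 to 23.1 FPKM among the siRNA libraries), while NCAPG2 and NCAPD3 overlapped no neighbour in the order. Among genes that reached 1 FPKM in a library, NCAPD2 lay between percentiles 87.5 and 91.6 in the 4 libraries and NCAPH between 62.7 and 69.8. The control value of a subunit rests on about 2190 fragments for NCAPH to 14240 for NCAPD2, counted over its coding length, so counting error alone gives a log2 ratio a standard error of 0.014 to 0.045. The spread between cultures is not included in that error.

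**Figure D1:**
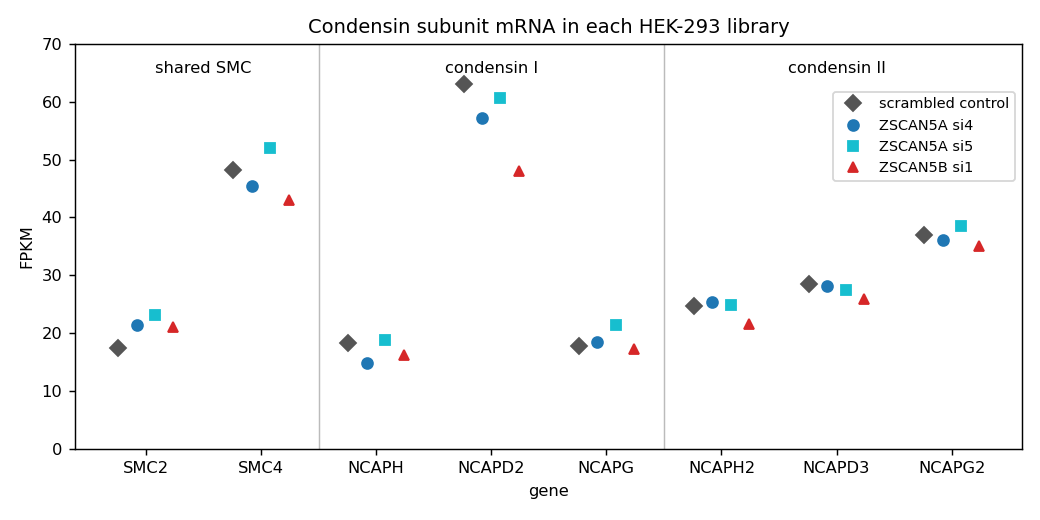
FPKM of each condensin subunit in the 4 HEK-293 libraries (1 point per library, linear axis from 0), grouped into the shared SMC subunits and the subunits of condensin I and condensin II. NCAPD2 was highest and SMC4 second in every library, and SMC2 was lowest in the control (17.4 FPKM) and higher in each siRNA library (21.1 to 23.1 FPKM).

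SMC2 was the subunit furthest above the control. The deposited locus of the gene is chr9:106856541-106903700 on the plus strand, and its GENCODE transcript has 25 exons and codes for 1197 residues. Its level was 21.4 FPKM after si4, 23.1 after si5, 21.1 in the library labelled ZSCAN5B knockdown and 17.4 in the control. All 3 siRNA libraries lay above the control, and they lay closer to each other than to it. The mean of si4 and si5, 22.2 ± 1.14 FPKM (SD, n = 2), was 1.28-fold the control (log2 ratio 0.35), and the si1 value was 1.21-fold (log2 ratio 0.28). SMC2 was the only member above the control in every siRNA library, a pattern found in 30.1% of 12983 genes.

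SMC4, the partner of SMC2 in the ATPase core, did not share this pattern. It lies at chr3:160117430-160152741 on the plus strand (24 exons, 1288 residues). Its level was 45.5 FPKM after si4, 52.0 after si5, 43.0 in the library labelled ZSCAN5B knockdown and 48.2 in the control. The si4 and si5 values fell on either side of the control, with log2 ratios of -0.08 and 0.11, and their mean of 48.7 ± 4.57 FPKM (SD, n = 2) was 101% of it. The si1 value was 89.1% of the control. Within each library, the ratio of SMC2 to SMC4 was 0.471 after si4, 0.444 after si5, 0.491 after si1 and 0.361 in the control. It was thus 123% to 136% of the control value in the 3 siRNA libraries, and a ratio within a library does not depend on how libraries are scaled against each other.

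The kleisin of condensin I, NCAPH (chr2:97001484-97041274, plus strand, 18 exons, 741 residues), was the member on which si4 and si5 differed most. Its level was 14.9 FPKM after si4, 18.8 after si5, 16.2 in the library labelled ZSCAN5B knockdown and 18.4 in the control. With si4 it was 81.0% of the control and after si5 103%, so the ZSCAN5A mean of 16.8 ± 2.79 FPKM (SD, n = 2) differed from the control by less than the 2 libraries differed from each other. The si5 library was higher than the si4 library by 0.34 on the log2 scale. For NCAPH2, the kleisin of condensin II (chr22:50946645-50963209, plus strand, 20 exons, 605 residues), the values were 25.4 FPKM after si4, 24.9 after si5, 21.6 after si1 and 24.7 in the control. The ZSCAN5A mean was 25.2 ± 0.329 FPKM (SD, n = 2), or 102% of the control, and the library labelled ZSCAN5B knockdown was the lowest of the 4, at 87.4%. NCAPH2 shares 857 bases, or 25.7% of its transcript, with SCO2 on the opposite strand, a gene at 22.6 to 24.4 FPKM, and the counting is not stated to use strand, so reads of the 2 genes cannot be told apart there. It also shares 855 bases (25.6%) with an annotated long non-coding RNA on its own strand, whose reads cannot be told apart from its own in that stretch.

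NCAPD2, a regulatory HEAT-repeat subunit of condensin I, was the member furthest below the control after si1. In the ZSCAN5A comparison NCAPH was the lowest member, at 91.8% of the control. NCAPD2 lies at chr12:6603298-6641132 on the plus strand (32 exons, 1401 residues). The level was 57.1 FPKM after si4, 60.7 after si5, 48.1 in the library labelled ZSCAN5B knockdown and 63.1 in the control. All 3 siRNA libraries lay below the control, si1 by the most, at 76.3% of it (log2 ratio -0.39). The ZSCAN5A mean of 58.9 ± 2.54 FPKM (SD, n = 2) was 93.4% of the control (log2 ratio -0.10). Its counterpart in condensin II, NCAPD3 (chr11:134022337-134094426, minus strand, 35 exons, 1498 residues), stood at 28.1 FPKM after si4, 27.5 after si5, 25.8 after si1 and 28.5 in the control. These values span 1.10-fold, and the ZSCAN5A mean of 27.8 ± 0.388 FPKM (SD, n = 2) was 97.5% of the control. NCAPD2 and NCAPD3 were the 2 members below the control in every siRNA library, a pattern found in 36.2% of 12983 genes. In GENCODE, the transcript of NCAPD3 shares 1889 bases (25.6%) with JAM3 on the opposite strand (17.5 to 18.3 FPKM). It also shares 96 bases with a long non-coding RNA on that strand. That transcript extends down to base 134020008, whereas the deposited locus starts at 134022337. Whether the shared bases lie within the counted locus was not tested.

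NCAPG, the HEAT-repeat subunit that holds DNA together with the kleisin of condensin I (chr4:17812525-17846487, plus strand, 21 exons, 1015 residues), stood at 18.5 FPKM after si4, 21.4 after si5, 17.3 in the library labelled ZSCAN5B knockdown and 17.7 in the control. The ZSCAN5A libraries were both above the control, at 105% and 121%, and si1 was 97.7% of it. Their mean of 19.97 ± 2.05 FPKM (SD, n = 2) was 1.13-fold the control, and the gap between si4 and si5 was larger than that difference. NCAPG shares 1634 bases, or 35.6% of its transcript, with LCORL on the opposite strand, which stood at 9.67 FPKM after si4, 11.1 after si5, 9.04 after si1 and 8.81 in the control. The si5 library was thus the highest of the 4 for both genes, and the part of shared sequence in the NCAPG values was not tested. NCAPG2, the counterpart in condensin II (chr7:158424003-158497520, minus strand, 28 exons, 1143 residues), was the most even member. Its level was 36.0 FPKM after si4, 38.6 after si5, 35.0 after si1 and 37.0 in the control, a span of 1.10-fold. NCAPG and NCAPH2 were the 2 members above the control after si4 and si5 and below it after si1, an arrangement found in 4.58% of 12983 genes. Some of these signs are not resolved even by counting error. The log2 ratio of NCAPH2 was 0.040 (counting SE 0.040) after si4 and 0.014 (SE 0.038) after si5. That of NCAPG after si1 was -0.033 (SE 0.038).

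**Figure D2:**
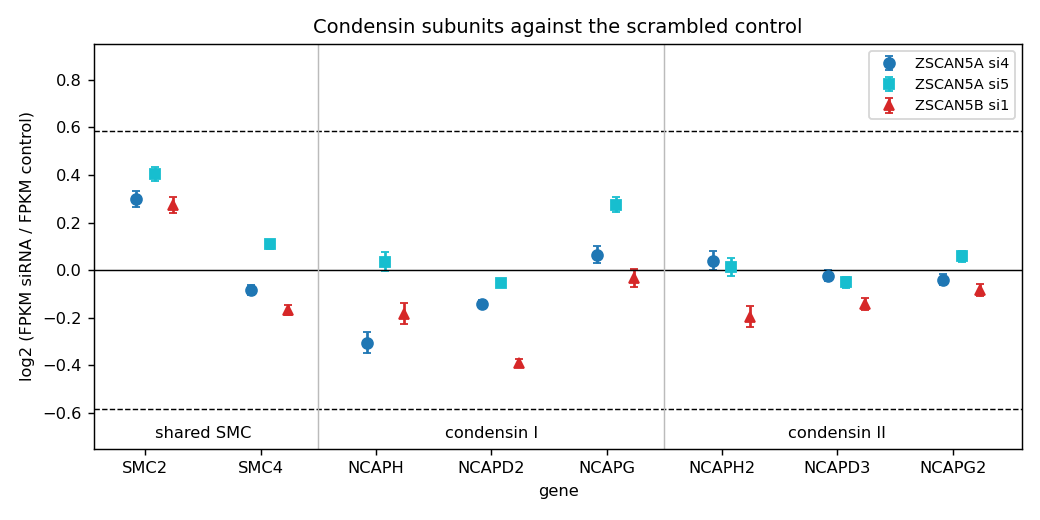
Log2 ratio of each subunit's FPKM in an siRNA library to the scrambled control, 1 point per library. Error bars are 1 standard error from fragment counting alone, and dashed lines mark the 1.5-fold limit. All points lie inside the limit, from -0.39 (NCAPD2, si1) to 0.40 (SMC2, si5).

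No condensin subunit passed the 1.5-fold limit in either direction. For si4 and si5 against the control, 0 of 8 members were over 1.5-fold higher, beside 0.677% of 12993 genes tested, and 0 of 8 were over 1.5-fold lower, beside 3.11%. For the library labelled ZSCAN5B knockdown, 0 of 8 were higher, beside 0.844% of 12921 genes, and 0 of 8 were lower, beside 3.17%. With such shares, a count of 0 among 8 genes is what the background itself gives. At a lower limit, an absolute log2 ratio of 0.32, SMC2 alone was higher after ZSCAN5A siRNA, where 5.14% of genes were, and NCAPD2 alone was lower in the library labelled ZSCAN5B knockdown, where 12.8% of genes were. A fit with limma on log2(FPKM + 1) over the 4 libraries, with 1 residual degree of freedom from si4 and si5, called no member in either comparison at an adjusted p of 0.05, beside 0.0765% of 13078 genes in each. Its lowest adjusted p among the members was 0.385 for SMC2 (log2 difference 0.34 ± 0.11, SE) in the ZSCAN5A comparison and 0.468 for NCAPD2 (log2 difference -0.38 ± 0.11, SE) in the comparison of si1. Without adjustment, limma put 1 of 8 members under 0.05 in each comparison, SMC2 in the former, beside 12.6% of all genes, and NCAPD2 in the latter, beside 10.6%. That fit takes the control and si1 to vary as si4 and si5 did.

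As a group, the 8 subunits centred on the control after ZSCAN5A siRNA and slightly below it after si1. In the ZSCAN5A comparison, 5 members were higher and 3 lower, beside 46.7% of all 12993 genes tested that were higher. Of the 8653 genes at 5 FPKM or more in every library, 55.5% were higher. The median log2 ratio of the members was 0.013, beside -0.02 over the genes tested and 0.024 over those at 5 FPKM or more. The median over members was -0.03 after si4 alone and 0.05 after si5 alone, so its sign depended on which of these libraries was used. In the comparison of the library labelled ZSCAN5B knockdown, SMC2 was higher and the other 7 members were lower. Beside them, 51.5% of 12921 genes tested were lower, and 3835 of the 8653 genes at 5 FPKM or more were. The median log2 ratio of the members was -0.15, beside -0.01 over all genes tested and 0.03 over genes at 5 FPKM or more. The central 95% of those 8653 genes ran from -0.45 to 0.37 in the ZSCAN5A comparison and from -0.49 to 0.41 in the comparison of si1, and all 8 members lay within it in both. Both comparisons share the control library. Set against the mean of si4 and si5 in place of the control, the library labelled ZSCAN5B knockdown was lower for all 8 members, by -0.06 (NCAPH) to -0.29 (NCAPD2) on the log2 scale, beside 46.2% of 12888 genes that were lower and a median log2 ratio of 0.01 over them. In limma, no member passed an adjusted p of 0.05 for this difference, beside 0.115% of genes, and NCAPD2 was the only member under 0.05 without adjustment, where 2.71% of genes were. In RNA from a bulk culture, fewer cells in the phases that express these genes and less RNA per cell cannot be told apart.

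Between si4 and si5, which target the same gene, 0 of 8 members differed by more than 1.5-fold, beside 2.53% of 12800 genes. In 6 of 8 members the si5 library was higher, by 0.09 (NCAPD2) to 0.34 (NCAPH) on the log2 scale, and for NCAPH2 and NCAPD3 the log2 ratio of si5 to si4 was -0.03. Of all 12800 genes, 45.4% were higher after si5. The median log2 ratio of si5 to si4 was 0.10 over the members and -0.03 over the 8653 genes at 5 FPKM or more in every library. For SMC4, NCAPH, NCAPG and NCAPG2, the difference between si4 and si5 exceeded the difference of their mean from the control.

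The balance between the complexes moved less than SMC2 or NCAPD2 did. Summed over NCAPH, NCAPD2 and NCAPG, condensin I mRNA amounted to 90.5 FPKM after si4, 101 after si5, 81.6 after si1 and 99.1 in the control. The sum over NCAPH2, NCAPD3 and NCAPG2 of condensin II was 89.5, 91.0, 82.4 and 90.2 FPKM in the same order. The ratio of the first sum to the second was 1.01 after si4, 1.11 after si5, 0.990 after si1 and 1.10 in the control, so the si5 value was 101% of the control. Condensin I and condensin II specific mRNAs were thus near parity in every library, although individual pairs were not.

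Each pair of counterparts had its own ratio, and the order of these 3 ratios was the same in the 4 libraries. NCAPD2 exceeded NCAPD3 by 2.04-fold after si4, 2.21-fold after si5, 1.86-fold after si1 and 2.21-fold in the control. NCAPG was below NCAPG2, with ratios of 0.514, 0.556, 0.494 and 0.478 in the same order. The kleisin ratio NCAPH to NCAPH2 was 0.585 after si4 and 0.754, 0.749 and 0.743 after si5, si1 and the control. Only the si4 library departed from the others for the kleisins, and the si1 library was the lowest for NCAPD2 to NCAPD3, at 84.3% of the control ratio. Summed together, the 8 members amounted to 247 FPKM after si4, 267 after si5, 228 after si1 and 255 in the control.

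**Figure D3:**
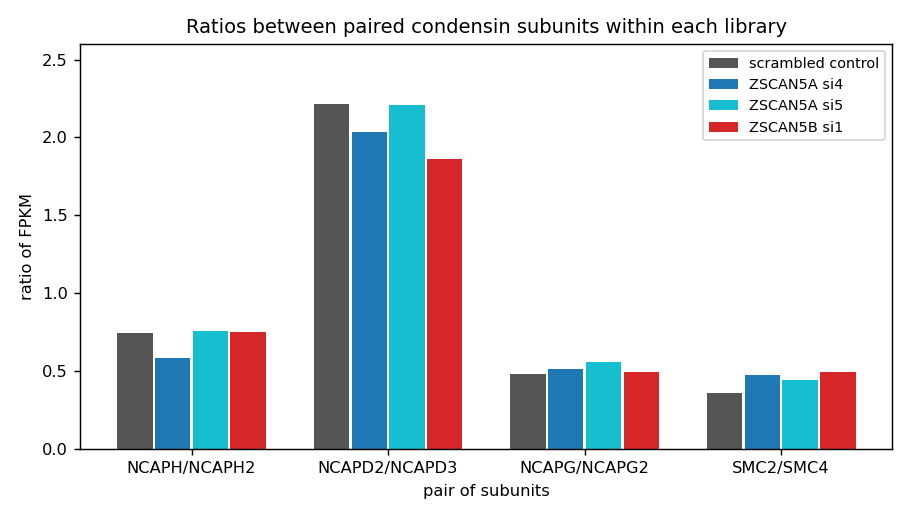
Ratio of FPKM within each library (bars from 0, 1 library per bar) for the pairs of condensin I to condensin II counterparts and for SMC2 to SMC4. The ratio of SMC2 to SMC4 was 0.361 in the control and 0.444 to 0.491 in the siRNA libraries, and NCAPH to NCAPH2 was low after si4 alone (0.585).

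Transcript length and GC content moved with the ratios of these libraries and were set beside each member. When genes were divided into 10 bins of transcript length and 10 of GC content, the 187 genes in the same bins as SMC2 had a median log2 ratio of 0.06 in the ZSCAN5A comparison, and SMC2 (37.4% GC) lay 0.29 above that median. Over the 8 members, the medians of similar genes in that comparison ran from -0.14 (NCAPH and NCAPD3) to 0.06 (SMC2). In the comparison of si1, SMC2 lay 0.22 above its similar genes. The genes similar to NCAPD2 (51.6% GC) had a median of -0.11 after si1, and NCAPD2 differed from it by -0.28. Relative to similar genes, NCAPH, NCAPD2 and NCAPD3 lay 0.01, 0.03 and 0.10 above in the ZSCAN5A comparison, where their uncorrected ratios were negative, and SMC4 lay at -0.03. The median of the 8 differences was 0.076 in the ZSCAN5A comparison and -0.061 after si1. The part of length and GC content in the ratios was not tested further.

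**Figure D4:**
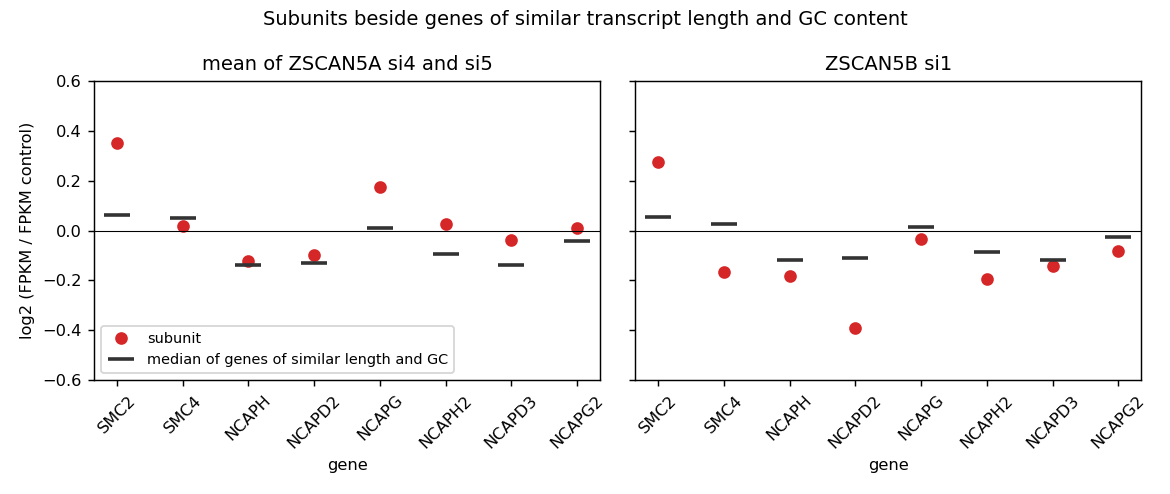
Log2 ratio of each subunit to the control (red points) beside the median log2 ratio of genes in the same bins of transcript length and GC content (dark bars), for the mean of si4 and si5 (left) and for si1 (right). SMC2 lies above its similar genes in both panels (by 0.29 and 0.22) and NCAPD2 below them after si1 (a difference of -0.28).

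Most members share a promoter feature that their choice did not use. The cell cycle genes homology region (CHR), an element bound by the DREAM and MuvB complexes at genes expressed in G2 and mitosis, was searched as the letters TTTGAA or TTCGAA on both strands, from 250 bases before to 50 bases after the start of the canonical GENCODE transcript (GRCh37). It was present in 6 of 8 members, beside 12.8% of 19869 promoters of protein-coding genes. The 30-base windows around each match are shown in the direction of the gene, with the matched letters in capitals, because they are the sequence the subunits have in common.
SMC2, chr9:106856575-106856604: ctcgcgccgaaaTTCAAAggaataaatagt
SMC4, chr3:160117351-160117380: gccgcactttttTTCAAAttagtggatccc
NCAPD2, chr12:6603111-6603140: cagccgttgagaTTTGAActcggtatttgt
NCAPG, chr4:17812555-17812584: tcgcgggaattaTTTGAAcgttcgagcggt
NCAPD3, chr11:134093847-134093876: gcgggagcgagcTTTGAAagttgagcacgg
NCAPG2, chr7:158497446-158497475: gcgccggcgggtgcgTTTGAAtctggtccg
All 6 matches were TTTGAA, read on the strand opposite to the gene in SMC2 and SMC4. Both kleisin genes, NCAPH and NCAPH2, had no match in this window. The letters CCAAT, the core of the box bound by NF-Y and often found near a CHR, were present in 3 of 8 members (NCAPH, NCAPD2 and NCAPD3), beside 36.0% of promoters, and NCAPD2 held 4 copies. Among other genes at 5 FPKM or more in every library, the 847 with a CHR match had a median log2 ratio of 0.06 after si4, 0.05 after si5 and 0.05 after si1, and the 7478 without one had medians of 0.04, 0.01 and 0.03.

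Genes that act with condensin stayed within the same limits. Of 30 partners and regulators, among them mitotic kinases, the chromosomal passenger complex, topoisomerase II and the chromokinesin KIF4A, none passed the 1.5-fold limit in either comparison. Of all genes tested, 0.677% passed it upwards and 3.11% downwards in the ZSCAN5A comparison, and 0.844% and 3.17% after si1. In the ZSCAN5A comparison 18 of 30 were higher, with a median log2 ratio of 0.06, and after si1 13 of 30 were higher, with a median of -0.04. Beside these, 55.5% and 55.7% of genes at 5 FPKM or more in every library were higher. The spindle checkpoint kinase TTK stood at 36.8 FPKM after si4, 42.3 after si5, 35.0 after si1 and 31.4 in the control. CSNK2B, the regulatory subunit of casein kinase 2, which phosphorylates condensin, stood at 80.4, 84.6, 86.3 and 105 FPKM in the same order, on the row of the primary chromosome. INCENP, the scaffold of the chromosomal passenger complex, was at 11.1, 12.6, 10.7 and 14.1 FPKM, and MKI67, which coats mitotic chromosomes, at 34.6, 39.9, 31.2 and 41.3 FPKM. CSNK2B, INCENP and MKI67 were thus highest in the control, and TTK was lowest there. A CHR match was found in 19 of the 30 promoters.

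Among the other SMC complexes, 10 of 14 cohesin genes were higher than the control in each comparison, with median log2 ratios of 0.16 and 0.08, and none passed the limit. Of genes at 5 FPKM or more in every library, 55.5% were higher in the ZSCAN5A comparison and 55.7% after si1. STAG2, a cohesin subunit that binds the ring, stood at 58.3 FPKM after si4, 58.8 after si5, 55.9 after si1 and 40.5 in the control. The ATPase SMC3 stood at 57.2, 61.7, 49.9 and 44.2 FPKM in the same order, whereas its partner SMC1A stood at 91.1, 91.6, 84.3 and 102 FPKM. As for SMC2 and SMC4, 1 ATPase of the core was thus lowest in the control and the other was not. In the SMC5/6 complex, 5 of 6 genes were higher in the ZSCAN5A comparison and 4 of 6 after si1, beside the same shares. The medians of the complex were 0.04 and 0.12, with none past the limit. The largest ratios in SMC5/6 were those of SMC6, at 17.5, 15.2, 15.9 and 13.7 FPKM, NSMCE2 with a log2 ratio of 0.30 in the ZSCAN5A comparison, and NSMCE4A with 0.18 in the comparison of si1.

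The TFIIIC subunits, which mark sites where condensin gathers, had median log2 ratios of 0.01 and -0.02, with none past the limit. In each comparison 3 of 6 were higher, beside 55.5% and 55.7% of genes at 5 FPKM or more in every library. GTF3C6 was higher in the library labelled ZSCAN5B knockdown, at 61.9 FPKM against 49.5 in the control, GTF3C1 was at 27.6 against 29.1 FPKM, and GTF3C3 was at 19.8 after si4 and 25.8 after si5 against 23.1 FPKM.

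The cell cycle lists bear on the members because condensin genes are expressed in G2 and mitosis. Of 28 G2/M genes, 20 were higher in the ZSCAN5A comparison and 15 after si1, with median log2 ratios of 0.09 and 0.01 and none past the limit. Of genes at 5 FPKM or more in every library, 55.5% and 55.7% were higher. The G2/M list shares 13 genes with the partners above, and 23 of its 28 promoters held a CHR match. The kinetochore motor CENPE stood at 8.89 FPKM after si4, 9.78 after si5, 5.95 after si1 and 6.41 in the control, and CENPF, another kinetochore protein, at 33.5, 35.8, 27.6 and 25.4 FPKM. The mitotic kinase PLK1 was highest in the control, at 58.2 FPKM against 45.7 to 51.6. Of 22 G1/S genes, 12 were higher in the ZSCAN5A comparison and 3 after si1, beside the same shares. Their median log2 ratios were 0.02 and -0.10, and 2 of 22 promoters held a CHR match. RRM2, a subunit of ribonucleotide reductase that peaks in S phase, passed the limit after si1, at 46.5 FPKM against 87.9 in the control (log2 ratio -0.92), and stood at 54.1 after si4 and 79.7 after si5. The licensing factor CDT1 and cyclin E2 (CCNE2) had log2 ratios of -0.43 and -0.48 after si1, and the transcription factor E2F1 had -0.32 in the ZSCAN5A comparison. With si1, then, 19 of 22 G1/S genes, 7 of 8 condensin subunits and 13 of 28 G2/M genes were below the control. Of all genes tested, 51.5% were below it, and of the 8653 at 5 FPKM or more in every library, 3835 were. The part of cell cycle phase in the subunits' values was not tested.

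**Figure D5:**
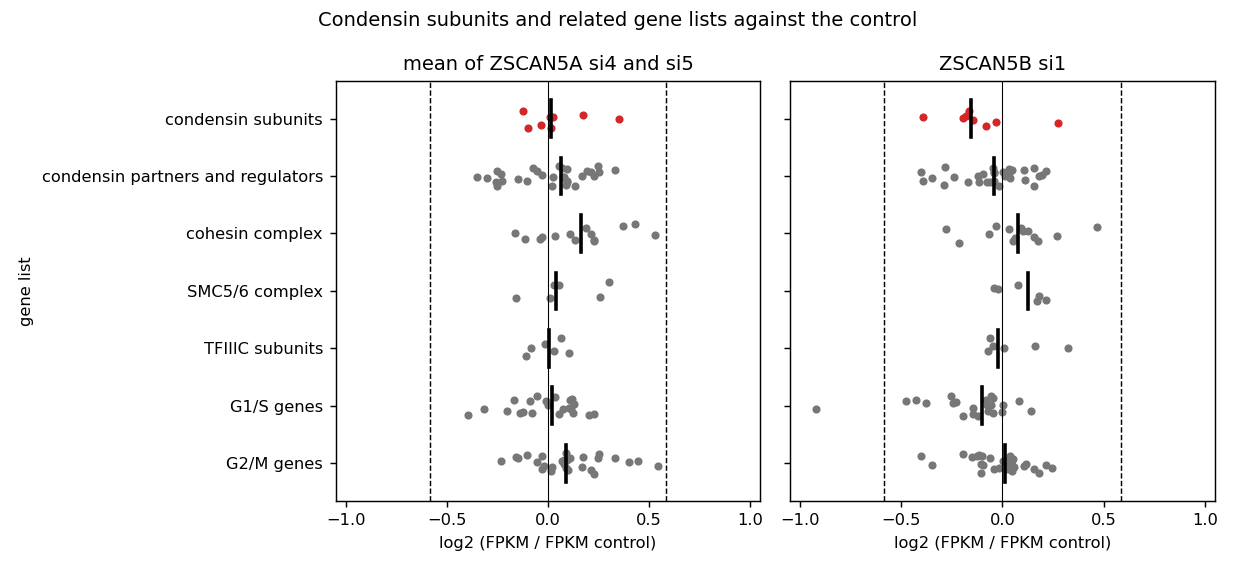
Log2 ratio to the control of each condensin subunit (red) and of each gene in 6 related lists (grey), for the mean of si4 and si5 (left) and si1 (right). Points are genes, thick black bars are list medians, dashed lines mark the 1.5-fold limit, and RRM2 among the G1/S genes after si1 is the only point outside it.

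The genes whose ratios over the 3 siRNA libraries were most like the median profile of the members (-0.03, 0.05 and -0.15 for si4, si5 and si1) were SLC2A13, STX6, CAT, SLC25A36 and GCC2. Their Euclidean distances to it, over 3 log2 ratios, were 0.0192 to 0.0300, among 8645 other genes at 5 FPKM or more in every library. The members themselves lay at distances of 0.0745 to 0.650, and 70 other genes lay nearer than the nearest member. Within a distance of 0.1 lay 185 of the 8645 other genes, or 2.14%. The profile is the members' own median, so these distances cannot test whether the subunits share it.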

How the data were processed

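The authors aligned the reads to hg19 and deposited 1 table of FPKM values, with a column per library; the labels' processing notes name CASAVA 1.8.2, Trimmomatic 0.30, TopHat2 2.1.0 and Cufflinks 2.2.1. Labels and methods name different mRNA library kits, and whether counting used strand is not given in the sources used here. FPKM values were used as deposited. The ZSCAN5A siRNAs were taken as the mean of si4 and si5, si1 singly, and each was divided by the 1 scrambled control. A gene was called when the ratio passed 1.5-fold, with at least 1 FPKM in a library of the comparison and neither side at 0. Because there is 1 control, p-values were given only by the limma alternative (limma 3.58.1 in R 4.3.3, trend, Benjamini-Hochberg adjustment). Tested on simulated data of 12983 genes, the fold rule recovered 200 of 200 genes changed 2-fold in each comparison, and limma 200 of 200; of the unchanged genes, the fold rule called 0 and limma called 11 and 12, more than the 10 that limma called in each real comparison. The simulation gave every gene the same noise, set the changes only in genes over 5 FPKM, and gave every siRNA library the same change. Its recovery and its lack of false calls by the fold rule hold for that setting only. In the real data, 2.53% of genes differed over 1.5-fold between si5 and si4. Depth was estimated from whole-number steps of low FPKM values and is approximate. The si5 estimate lies above the reads per sample that the study's methods state, and those of the other libraries below. Ratios and errors from these depth estimates cover counting error only. Lengths, GC content, promoters, exons and residues came from GENCODE lifted to GRCh37, matched for 95.0% of 13078 genes. Printed gene positions are those of the deposited rows, and their ends can differ from the GENCODE transcript. For NCAPH the row ends at 97041274 and the transcript at 97042829. For NCAPD3 the row runs from 134022337 to 134094426 and the transcript from 134020008 to 134093861. Promoter windows used the GENCODE start, and windows at the ends of the deposited rows were not searched. Python 3.11.15, NumPy 2.4.6, pandas 2.3.3, pysam 0.24.0 and matplotlib 3.10.9 were used. siRNA targets came from the study's supplement. The members and gene lists were chosen with earlier results of these data known. Beside the members, the text names from each list the genes past the limit and the 2 largest absolute ratios per comparison, the 5 genes nearest the members' profile, and the protein-coding genes whose exons overlap a member. KIF4A is named as an example of its list only. Alternatives covered the expression limit, pseudocount, scaling, fold limit, limma, length and GC content, and each ZSCAN5A siRNA singly. A limma contrast of si1 against si4 and si5 was added after seeing the data.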

Additional observations from a re-analysis of the deposited data

Results flagged for a closer look

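Among the genes named in the report, 2 subunits and CENPE of the G2/M list lay above the control in both ZSCAN5A siRNA libraries and below it in the library labelled ZSCAN5B knockdown. NCAPG had log2 ratios of 0.07 after si4, 0.28 after si5 and -0.03 after si1, and the si1 library differed from the mean of the others by -0.21 on the log2 scale. NCAPH2 had log2 ratios of 0.04, 0.01 and -0.20 in the same order, a difference of -0.22. The NCAPG ratio after si1 and the NCAPH2 ratios after si4 and si5 lay within 1 counting standard error of 0. CENPE had log2 ratios of 0.47, 0.61 and -0.11, a difference of -0.65. In limma, whose contrast of si1 against si4 and si5 was chosen after seeing the data, the adjusted p of each of the 3 differences was 1, and CENPE alone of the 3 was under 0.05 without adjustment. The same arrangement was found in 7 of 22 G1/S genes (MCM2, MCM3, MCM5, MCM7, RRM1, SLBP and CDC25A), in 2 of 28 G2/M genes (CENPE and NUSAP1), in 3 of 30 partners and regulators and in 1 of 6 TFIIIC subunits, beside 4.58% of all genes. CENPE was itself named for 1 of the 2 largest ratios of its list in the ZSCAN5A comparison. All 3 genes were flagged by the signs of their ratios, so the unadjusted p of CENPE comes from values that chose it. The other genes of these lists were also singled out after their values were seen.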

How the results depend on the processing

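No condensin subunit passed the limit under any alternative except the lower limit, an absolute log2 ratio of 0.32, which gave 1 member (SMC2) in the ZSCAN5A comparison and 1 (NCAPD2) after si1. Correction for length and GC content moved the members' median log2 ratio from 0.013 to 0.076 in the ZSCAN5A comparison and from -0.15 to -0.061 after si1. Using si4 or si5 alone gave medians of -0.03 and 0.05. Of 96 values of single members under alternatives that kept both ZSCAN5A libraries, 87 moved by less than the SD of si4 and si5 and 4 changed sign, all in the ZSCAN5A comparison after the length and GC correction (SMC4, NCAPH, NCAPD2 and NCAPD3). Leaving out si4 or si5 changed the sign of 3 of 16 values, for NCAPH without si4 (0.04) and for SMC4 (-0.08) and NCAPG2 (-0.04) without si5. SMC2, NCAPG and NCAPH2 kept their direction under every alternative run. The number of genes past the limit, 492 in the ZSCAN5A comparison and 518 after si1, depended more on the setting. It was 2512 and 2364 without an expression limit, 205 and 252 at 5 FPKM, 199 and 210 with a pseudocount of 1, 2404 and 2522 at the lower limit, 73 and 67 at 2-fold, 277 and 323 after the length and GC correction, and 10 and 10 by limma. With 1 ZSCAN5A siRNA left out it was 457 to 822, the higher number without si5. Other scalings moved the median of all genes by at most 0.0245 (log2). No paired analysis was possible because each siRNA has 1 library and the groups share fewer than 2 replicate numbers.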
